A study of Mus musculus with 28 samples.

Results

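A set of 7 secreted matrix genes was followed through the reprogramming of mouse fibroblasts: Dcn, Bgn, Aspn, Lum, Fmod and Ogn, which encode small leucine-rich proteoglycans, and Postn, which encodes periostin. They were chosen by name, with earlier results of these data known. The counts and p-values of members below are therefore not independent of that choice. The set makes up 7 of the 11807 genes measured on 24 arrays. The same 7 are among the 12394 genes measured on 4 arrays of a smaller experiment with another array design. All 7 were measured on both designs, by 10 probe sets in the larger experiment and 16 in the smaller, and 1 probe set stood for each gene.

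Small leucine-rich proteoglycans are secreted proteins built from leucine-rich repeats that bind collagen fibrils and set their spacing and diameter, and most carry chondroitin, dermatan or keratan sulfate chains. Periostin is no proteoglycan: it is a matricellular protein with fasciclin domains that binds collagen, fibronectin, tenascin and integrins. Fibroblasts of connective tissue make all of these proteins, and pluripotent cells are not known for them.

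The 24 arrays covered mouse embryonic fibroblasts (MEFs), sorted cells of reprogramming cultures and established induced pluripotent stem (iPS) cells, all of strain C57BL6/129. The fibroblasts carried 1 or 2 copies of an inducible cassette of the reprogramming factors (OKSM) together with the Rosa26-M2rtTA allele, whose product drives the cassette when doxycycline is present, and the labels do not say which array had which genotype. Induced cells were kept with doxycycline in embryonic stem cell medium with serum and LIF. Sorted fractions were Thy1+ SSEA1- cells, which kept the fibroblast surface marker Thy1 (Thy1+), cells negative for both markers (Thy1-), and Thy1- SSEA1+ cells (SSEA1+), which had gained an early surface marker of pluripotent cells.

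Each fraction had 2 arrays on day 3, 2 on day 6, 1 on day 9 and 1 on day 12. There was 1 array of SSEA1+ GFP+ cells of day 12, 3 arrays of iPS cells, which are GFP+ and were freed of feeder cells by preplating, and 2 arrays of MEFs. The labels do not say which gene drives GFP. The smaller experiment had 2 arrays of SSEA1+ EpCAM+ and 2 of SSEA1+ EpCAM- cells of day 6, EpCAM being an adhesion protein of epithelial and pluripotent cells, and the labels give no strain for them. The labels do not state whether arrays of a group derive from different animals or cultures. The p-values therefore reflect only array-to-array spread, possibly technical.

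Marker genes followed the sort labels, with limits. Thy1 mRNA averaged 8.97 in SSEA1+ and 11.39 in Thy1+ cells over days 3 to 12 (log2 signal, mean of day means, 6 arrays each). Cells sorted as Thy1- thus still held Thy1 mRNA. Nanog, a core pluripotency gene, averaged 11.79 in iPS cells and 4.96 in MEFs. Epcam averaged 9.79 in EpCAM+ cells and 6.85 in EpCAM- cells. On the day 6 Thy1+ M2 array, the Gapdh control stood 1.78 log2 units higher at its 3′ than at its 5′ end, against 0.579 to 1.11 on the others of the 24 arrays and 0.309 to 0.772 on the EpCAM arrays, a pattern seen with shorter RNA. Without that array 2 calls of members changed, and both are given with their results.

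The 7 genes sit in few places of the genome. In the RefSeq gene order, Dcn, Lum, Kera and Epyc follow each other on chromosome 10, Aspn, Omd and Ogn lie in a row with Ecm2 on chromosome 13, and Fmod follows Optc and Prelp on chromosome 1. Kera, Epyc, Omd, Optc and Prelp encode proteoglycans of the same family. Bgn on chromosome X and Postn on chromosome 3 have no family member among their 3 nearest genes on either side.

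Promoter sequences are shown for the 2 members with the deepest fall, Postn and Aspn, and for Ogn, the neighbour of Aspn with a shallower fall. That of Fmod is shown as well, the only member above its mean fibroblast level in Thy1- and Thy1+ cells on days 6, 9 and 12. Of the 7 members, 5 have an entry in the RefSeq promoter table for build GRCm38.p6, and each entry spans 250 bases before to 50 bases after a transcription start, all 4 on the plus strand. Capitals mark the TATA motif TATAAA and the CCAAT motif on either strand (TTTATA and ATTGG on the minus strand). For Postn the downstream of its 2 annotated starts is given, at chr3:54360857-54361156, for Aspn chr13:49544193-49544492, for Ogn chr13:49607765-49608064 and for Fmod chr1:134037004-134037303.
Postn: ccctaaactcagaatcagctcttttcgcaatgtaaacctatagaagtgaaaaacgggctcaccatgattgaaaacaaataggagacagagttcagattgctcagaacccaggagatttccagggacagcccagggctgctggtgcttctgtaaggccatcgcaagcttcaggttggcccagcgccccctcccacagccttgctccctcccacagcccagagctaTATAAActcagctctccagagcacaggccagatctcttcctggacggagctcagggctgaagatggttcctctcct
Aspn: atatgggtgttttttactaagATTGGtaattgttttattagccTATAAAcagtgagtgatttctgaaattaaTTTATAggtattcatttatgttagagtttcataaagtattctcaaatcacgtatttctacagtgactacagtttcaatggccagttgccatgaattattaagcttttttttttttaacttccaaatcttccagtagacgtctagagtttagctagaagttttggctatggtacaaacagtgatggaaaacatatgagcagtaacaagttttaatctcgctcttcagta
Ogn: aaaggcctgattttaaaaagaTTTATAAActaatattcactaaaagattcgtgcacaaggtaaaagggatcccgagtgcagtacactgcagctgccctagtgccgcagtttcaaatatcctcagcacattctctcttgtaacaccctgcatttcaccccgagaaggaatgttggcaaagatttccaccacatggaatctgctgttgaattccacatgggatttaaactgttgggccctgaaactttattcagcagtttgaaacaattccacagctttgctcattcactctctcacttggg
Fmod: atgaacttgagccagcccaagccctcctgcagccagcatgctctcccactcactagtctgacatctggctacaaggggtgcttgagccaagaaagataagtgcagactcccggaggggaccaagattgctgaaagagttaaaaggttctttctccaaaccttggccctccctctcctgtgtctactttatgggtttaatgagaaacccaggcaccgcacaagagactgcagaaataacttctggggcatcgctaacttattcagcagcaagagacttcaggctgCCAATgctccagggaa

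TATAAA starts 26 bases before this Postn start, 229 and 227 bases before the Ogn start and 207 and 178 bases before the Aspn start. In the Ogn sequence the 2 matches overlap each other on opposite strands. CCAAT lies 229 bases before the Aspn start and 35 bases after the Fmod start. Of 32851 promoters in the table, 13.6% hold TATAAA and 37.4% hold CCAAT. The AP-1 motif TGANTCA, searched on both strands, is in 7.81% of them and in none of the 6 sequences of the 5 members. The Bgn sequence holds none of these 3 motifs. These matches describe letters in a window and were not tested for use by any factor.

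**Figure D1:**
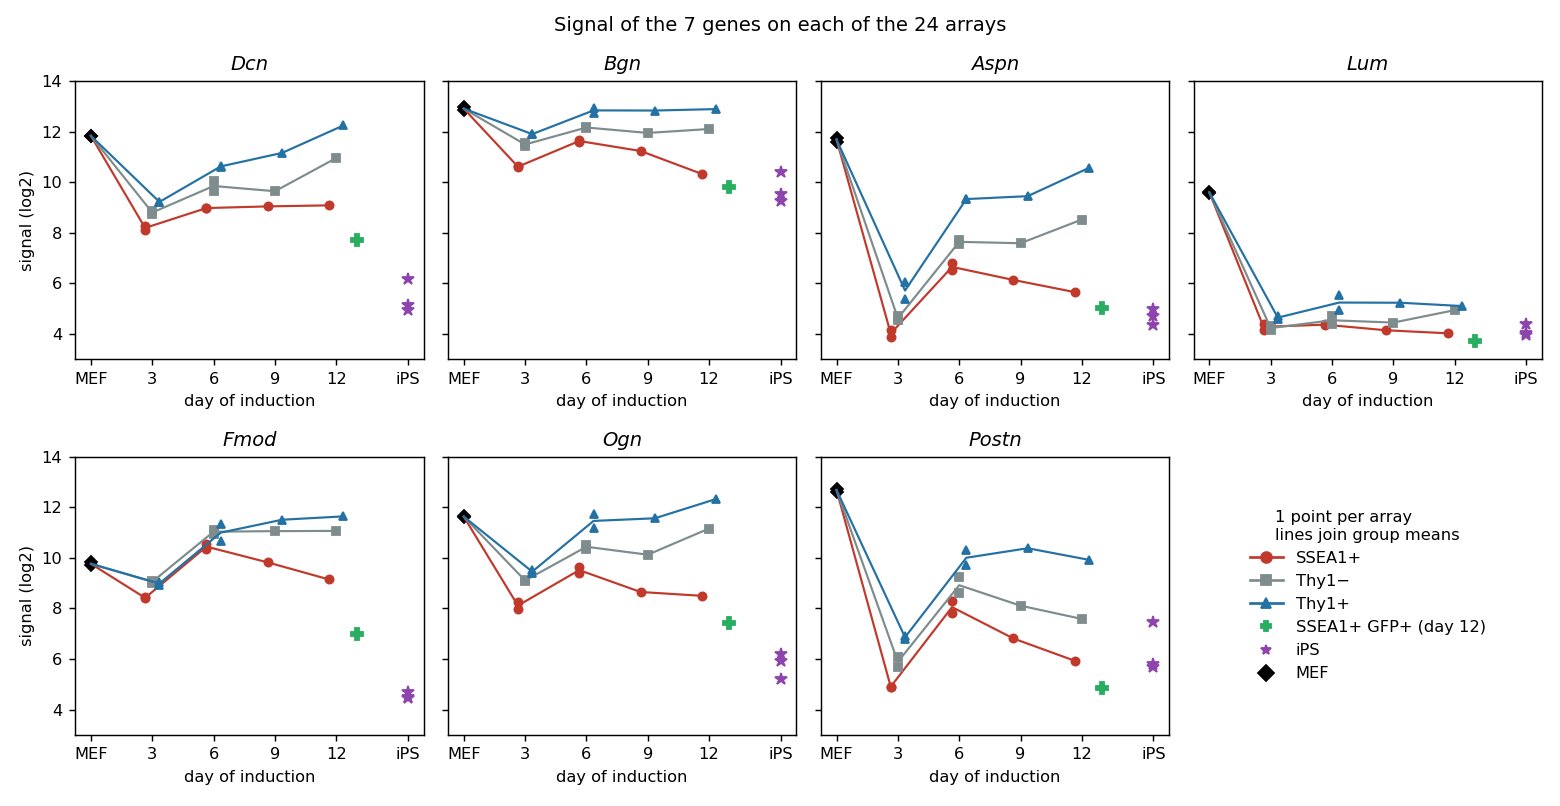
Signal (log2) of each of the 7 genes on each of the 24 arrays, against day of induction, with MEFs at the left and iPS cells at the right. Symbols and colours give the sorted fraction, each symbol is 1 array, and lines join group means starting from the MEF mean. All 7 genes were lower on day 3 than in MEFs, and on day 12 each was highest in Thy1+ and lowest in SSEA1+ cells among the 3 fractions.

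By day 3 of induction most of the 7 genes were lower than in MEFs in every fraction. With limma and Benjamini-Hochberg adjustment over all genes, 7 of 7 members were called lower in SSEA1+ cells than in MEFs, 6 of 7 in Thy1- cells and 6 of 7 in Thy1+ cells, where a call needs an adjusted p under 0.05 and a 2-fold difference or more. Of all 11807 genes, 8.8% were called lower in SSEA1+ cells, 6.55% in Thy1- cells and 5.43% in Thy1+ cells. The median log2 difference of the 7 was −3.64, −3.03 and −2.61 in those fractions, beside 0.05, 0.03 and 0.01 for all genes. All 3 comparisons use the same 2 MEF arrays. The separate parts of the factors, doxycycline, culture medium and sorting in these differences were not tested. In sorted bulk samples, fewer cells that make a transcript and less of it per cell cannot be told apart.

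Postn and Aspn fell furthest. Postn, the matricellular member, read 4.91 and 4.89 in SSEA1+ cells of day 3, 5.69 and 6.08 in Thy1- cells and 6.80 and 6.91 in Thy1+ cells, against 12.62 and 12.74 in MEFs (log2 signal, M2 and M3 arrays). Aspn, which encodes asporin, a relative of decorin and biglycan that lacks their usual glycosaminoglycan attachment site, read 4.16 and 3.87 in SSEA1+ cells, 4.53 and 4.70 in Thy1- cells and 5.39 and 6.04 in Thy1+ cells, against 11.61 and 11.76 in MEFs. For both genes every day 3 array lay far below both MEF arrays, and the fractions did not overlap. In SSEA1+ cells Postn was lower by a log2 difference of −7.78 (SE 0.44, adjusted p = 8.69e-09) and Aspn by −7.67 (SE 0.22, adjusted p = 2.93e-11), which ranked 1 and 2 by size among all genes. In Thy1+ cells the differences were −5.82 for Postn and −5.97 for Aspn. Aspn was dim on day 3, which limits the precision of its fall and of later rises measured from there. On the SSEA1+ arrays 11.7% to 16.2% of probe sets had a signal no higher than that of Aspn, and on the Thy1- arrays 21.4% to 23.6%. For Postn on the SSEA1+ arrays it was 26.2% to 26.9%.

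Lum, which encodes lumican, a keratan sulfate proteoglycan, fell to 4.16 and 4.40 in SSEA1+ cells, 4.30 and 4.15 in Thy1- cells and 4.59 and 4.69 in Thy1+ cells, against 9.61 and 9.58 in MEFs. Unlike the other members, Lum did not separate SSEA1+ from Thy1- cells on day 3. The differences from MEFs were −5.32, −5.37 and −4.95 in SSEA1+, Thy1- and Thy1+ cells (SE 0.19 each, adjusted p at most 4.94e-10). On the arrays of day 3 SSEA1+ cells 16.2% to 19.0% of probe sets had a signal no higher than that of Lum. On the MEF arrays it was 81.2% and 81.3%.

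Dcn, Ogn and Bgn fell less. Dcn, which encodes decorin, a proteoglycan that binds collagen and TGF-beta, read 8.12 and 8.26 in SSEA1+ cells, 8.72 and 8.88 in Thy1- cells and 9.23 and 9.21 in Thy1+ cells, against 11.83 and 11.82 in MEFs. Ogn, which encodes osteoglycin (mimecan), read 8.24 and 7.99 in SSEA1+ cells, 9.10 and 9.11 in Thy1- cells and 9.38 and 9.52 in Thy1+ cells, against 11.61 and 11.66 in MEFs. Bgn, which encodes biglycan, the closest relative of decorin, read 10.62 and 10.60 in SSEA1+ cells, 11.43 and 11.55 in Thy1- cells and 11.89 and 11.91 in Thy1+ cells, against 12.85 and 12.97 in MEFs. For these 3 genes each fraction stood apart from the next, SSEA1+ cells lowest, and all lay below MEFs. The differences in SSEA1+ cells were −3.64 for Dcn (SE 0.28), −3.52 for Ogn (SE 0.26) and −2.30 for Bgn (SE 0.25), with adjusted p of 1.8e-07, 1.02e-07 and 5.61e-06 in limma. In Thy1+ cells the Bgn difference of −1.01 (adjusted p = 0.00888) lay at the 2-fold limit, and its call was lost without MEF M3 (−0.95, adjusted p = 0.0683), without Thy1+ M2 (adjusted p = 0.0539) and without Thy1+ M3 (adjusted p = 0.0508).

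Fmod, which encodes fibromodulin, a relative of lumican that shares its collagen-binding site, was the member that moved least. It read 8.40 and 8.44 in SSEA1+ cells, 9.00 and 9.10 in Thy1- cells and 9.03 and 8.94 in Thy1+ cells of day 3, against 9.71 and 9.82 in MEFs. All day 3 arrays lay below both MEF arrays, and Thy1- and Thy1+ cells overlapped. The SSEA1+ difference of −1.35 (SE 0.18, adjusted p = 4.4e-05) was called. In Thy1- and Thy1+ cells the values of −0.71 and −0.78 (adjusted p = 0.00921 and 0.00582) passed the p threshold but not the 2-fold limit.

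Other values moved alongside. The 3′ probe set of the 18S RNA control read 6.16 to 6.69 on the 6 arrays of day 3 and 7.38 and 7.74 on the MEF arrays. Of 10 measured fibroblast markers 6 were called lower in SSEA1+, 4 in Thy1- and 3 in Thy1+ cells of day 3, and the median marker signal was 10.91 and 10.95 in SSEA1+, 11.54 and 11.70 in Thy1- and 11.96 and 12.14 in Thy1+ cells, against 12.22 and 12.24 in MEFs. Of 6 cartilage and tendon markers 3, 2 and 2 were called lower, with a median signal of 4.62 to 5.00 on the day 3 arrays and 6.51 and 6.52 on the MEF arrays. Among them Tnmd, the tendon gene tenomodulin, differed by −7.03, −6.75 and −6.55 in SSEA1+, Thy1- and Thy1+ cells. Sox9, a regulator of cartilage, differed by −2.19, −2.04 and −1.57, and the tendon regulator Scx by −1.14, −0.83 and −0.98, called in SSEA1+ cells. The cartilage genes Col2a1, Acan and Col9a1 were not called, at 6.35 to 7.08, 4.01 to 4.25 and 4.48 to 4.56 in these groups and MEFs. Epithelial markers had a median of 6.49 and 6.54 in SSEA1+ cells and 6.37 and 6.49 in Thy1- cells. Their median was 5.98 and 6.09 in Thy1+ cells, against 4.84 and 5.14 in MEFs. Of these 7 genes 3, 2 and 2 were called higher, Krt19 by 3.93, 4.18 and 4.26. In either direction 1905, 1448 and 1263 of all 11807 genes were called in SSEA1+, Thy1- and Thy1+ cells.

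Lists of other cell types held called genes on day 3 as well. Of 7 macrophage markers, whose median was 3.77 to 5.34 over the 24 arrays, Cd68 was higher by 1.47, 1.33 and 1.27 and Lyz2 lower by −2.21, −1.92 and −2.14 in SSEA1+, Thy1- and Thy1+ cells. Of 6 endothelial markers, with a median of 4.08 to 4.83, Tek was higher by 3.29, 3.22 and 3.26. Of 6 muscle markers Des was lower by −1.33, −1.40 and −1.50 and Tnnt2 by −1.68, −1.43 and −1.58. The part of these genes' cells in the members' values was not tested. The part of these values in the fall of the 7 genes was not tested.

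**Figure D2:**
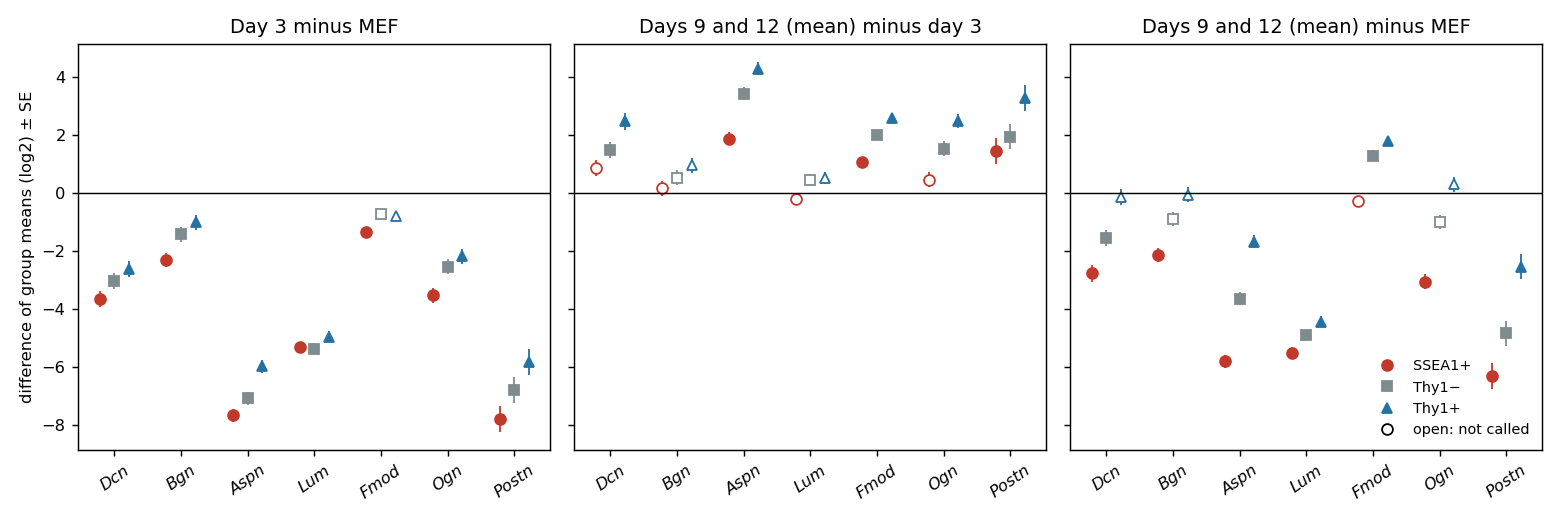
Differences of group means (log2, with standard error from limma) for each gene in SSEA1+, Thy1- and Thy1+ cells: day 3 minus MEF, mean of days 9 and 12 minus day 3, and mean of days 9 and 12 minus MEF. Filled symbols mark called differences and open symbols the rest. The fall on day 3 is seen in all fractions, the later rise is tallest in Thy1+ cells, and Lum stays low in all 3.

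Between day 3 and day 6 most of the genes turned upward, in all 3 fractions. Of the 7 members 5 were called higher on day 6 in SSEA1+ cells, 5 in Thy1- cells and 5 in Thy1+ cells, where 1.45%, 2.06% and 4.56% of all genes were called higher. Aspn, Postn, Fmod and Ogn were called in each fraction, Dcn in Thy1- and Thy1+ cells and Bgn in SSEA1+ cells. Lum was called in none, with differences of 0.09, 0.31 and 0.60.

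Postn read 8.30 and 7.81 in SSEA1+ cells of day 6, 9.24 and 8.60 in Thy1- cells and 9.71 and 10.30 in Thy1+ cells, all above every day 3 array of any fraction. The differences from day 3 were 3.15, 3.03 and 3.15 in SSEA1+, Thy1- and Thy1+ cells (SE 0.44 each, adjusted p = 0.000807, 0.000661 and 0.000202), nearly equal, so the gap between the fractions that had opened by day 3 remained on day 6. Aspn read 6.79 and 6.51 in SSEA1+ cells, 7.72 and 7.56 in Thy1- cells and 9.32 and 9.34 in Thy1+ cells, and differed from day 3 by 2.63, 3.02 and 3.62. Fmod read 10.36 and 10.53, 10.95 and 11.12, and 10.65 and 11.34 in the same order of fractions, above both MEF arrays everywhere, and differed from day 3 by 2.03, 1.98 and 2.01 (SE 0.18 each). Fmod thus moved by about the same amount in each fraction, while Aspn, which was not tested for the difference at this step, had its largest value in Thy1+ cells.

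Ogn read 9.63 and 9.40 in SSEA1+ cells of day 6, 10.51 and 10.36 in Thy1- cells and 11.18 and 11.74 in Thy1+ cells, where the M3 array lay above both MEF arrays. Dcn read 8.98 and 8.97 in SSEA1+ cells, 10.03 and 9.67 in Thy1- cells and 10.65 and 10.59 in Thy1+ cells, with differences from day 3 of 0.79 (adjusted p = 0.194), 1.05 (adjusted p = 0.0319) and 1.40 (adjusted p = 0.00276) in limma. Bgn read 11.65 and 11.61 in SSEA1+ cells, 12.15 and 12.17 in Thy1- cells and 12.93 and 12.74 in Thy1+ cells. All 3 genes were ordered alike on day 6, Thy1+ cells highest and SSEA1+ cells lowest, with no overlap between fractions.

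Some of these calls rested on single arrays. The SSEA1+ call of Bgn (1.02, adjusted p = 0.04) was lost whichever of its 4 arrays was left out, with adjusted p of 0.191 to 0.224. The Thy1- call of Dcn was likewise lost whichever array was left out (0.87 to 1.23, adjusted p of 0.0837 to 0.227). The SSEA1+ call of Ogn (1.40, adjusted p = 0.00605) was lost without day 3 M3 (1.28, adjusted p = 0.0916) and without day 6 M2 (1.28, adjusted p = 0.084).

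On days 9 and 12, which have 1 array per fraction each and were averaged, 3 of 7 members stood higher than on day 3 in SSEA1+ cells, 5 in Thy1- cells and 5 in Thy1+ cells, beside 2.7%, 3.51% and 4.36% of all genes. These comparisons share the day 3 arrays with those of day 6. The SE of a day 9 or day 12 value comes from the spread within the other groups, since a single array has none of its own.

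In Thy1+ cells Dcn, Ogn and Aspn had their highest values on day 12. Dcn stood at 9.22 on day 3 (mean of 2 arrays), 10.62 on day 6, 11.16 on day 9 and 12.24 on day 12. Ogn stood at 9.45, 11.46, 11.57 and 12.33, and Aspn at 5.71, 9.33, 9.45 and 10.57 on the same days. For Dcn and Ogn the day 12 array lay above both MEF arrays. Postn stood at 6.86, 10.00, 10.38 and 9.92 on these days, and Bgn stood at 11.90, 12.84, 12.83 and 12.89, its fibroblast level.

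Fmod in Thy1+ cells stood at 8.98 on day 3, 10.998 on day 6, 11.51 on day 9 and 11.64 on day 12, against 9.71 and 9.82 in MEFs. Lum stood at 4.64, 5.24, 5.23 and 5.10 against 9.61 and 9.58. The pair thus ended at opposite sides of the fibroblast level, although both encode keratan sulfate proteoglycans of one subfamily. The rise of the late Thy1+ cells over day 3 was 4.29 for Aspn (SE 0.22, adjusted p = 1.59e-08), 3.29 for Postn, 2.59 for Fmod, 2.49 for Ogn and 2.48 for Dcn. For Bgn it was 0.96 (adjusted p = 0.0145, under 2-fold) and for Lum 0.52 (adjusted p = 0.0733).

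In Thy1- cells Aspn stood at 4.61, 7.64, 7.58 and 8.52 on days 3, 6, 9 and 12, Dcn at 8.80, 9.85, 9.64 and 10.95, and Ogn at 9.10, 10.44, 10.12 and 11.16. All 3 were highest on the day 12 array. Postn stood at 5.89, 8.92, 8.11 and 7.58, highest on day 6. Its late rise of 1.96 (SE 0.44, adjusted p = 0.00902) was not called from day 12 alone (1.70, adjusted p = 0.0636) or without day 3 M2 (1.77, adjusted p = 0.0951). With day 9 alone, Dcn (0.84, adjusted p = 0.222) and Ogn (1.02, adjusted p = 0.0766) were not called either.

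In SSEA1+ cells most of the genes had their highest value on day 6. Postn stood at 4.90, 8.05, 6.81 and 5.93 on days 3, 6, 9 and 12, Aspn at 4.01, 6.65, 6.13 and 5.65, and Fmod at 8.42, 10.44, 9.82 and 9.14. Bgn stood at 10.61, 11.63, 11.23 and 10.32, and Ogn at 8.11, 9.51, 8.65 and 8.50. Each of these 5 genes was highest on day 6 and lower on day 12 than on day 9, whereas Dcn held at 8.97, 9.04 and 9.08 after 8.19 on day 3.

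Against day 3, the late SSEA1+ cells were higher for Aspn by 1.88 (SE 0.22, adjusted p = 6.47e-05), for Postn by 1.47 (SE 0.44, adjusted p = 0.0446) and for Fmod by 1.06 (SE 0.18, adjusted p = 0.00133). The Postn call was lost without either day 3 array (adjusted p = 0.183 and 0.176), and with day 12 alone only Aspn was called. A comparison added after the data had been seen set the same late cells against day 6. It called 1 of 7 members lower in SSEA1+ cells, Postn by −1.68 (SE 0.44, adjusted p = 0.041), beside 1.29% of all genes, and the values of the other members were −0.96 for Fmod, −0.94 for Ogn, −0.85 for Bgn, −0.76 for Aspn, −0.28 for Lum and 0.09 for Dcn. The Postn call was lost without either day 6 array (adjusted p = 0.329 and 0.087).

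The same added comparison called 0 of 7 members in Thy1- and 0 of 7 in Thy1+ cells, beside 1.38% and 0.483% of all genes in either direction, while 1 and 3 members had an unadjusted p under 0.05 in limma. The largest values were −1.07 for Postn in Thy1- cells (adjusted p = 0.311) and 1.08 for Dcn in Thy1+ cells (adjusted p = 0.0914). In Thy1+ cells Dcn was called without day 6 M3 (1.05, adjusted p = 0.028) and, as was Aspn, from day 12 alone (1.62 for Dcn and 1.24 for Aspn, adjusted p = 0.0254 and 0.0324).

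Set against MEFs, the late Thy1+ cells had 3 of 7 members lower and 1 higher, beside 4.56% and 4.61% of all genes. Lum was lower by −4.43 (SE 0.19), Postn by −2.53 (SE 0.44) and Aspn by −1.68 (SE 0.22), with adjusted p of 1.44e-09, 0.00077 and 7.48e-05 in limma. Fmod was higher by 1.81 (SE 0.18, adjusted p = 5.45e-06). Dcn, Bgn and Ogn differed from MEFs by −0.13, −0.05 and 0.32, with adjusted p of 0.799, 0.928 and 0.435.

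In late Thy1- cells 4 of 7 members were lower than in MEFs and 1 higher, beside 7.71% and 7.66% of all genes. The lower ones were Lum (−4.90), Postn (−4.84), Aspn (−3.63) and Dcn (−1.53), and Fmod was higher by 1.30. With day 12 alone Dcn was not called (−0.88, adjusted p = 0.0785). Ogn at −0.99 (adjusted p = 0.00785) and Bgn at −0.88 (adjusted p = 0.0143) were under 2-fold, and Ogn was called without MEF M2 (−1.02, adjusted p = 0.0394).

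In late SSEA1+ cells 6 of 7 members were lower and 0 higher than in MEFs, beside 11.2% and 10.1% of all genes. The differences ran from −6.31 for Postn and −5.79 for Aspn through −5.51 for Lum, −3.06 for Ogn and −2.77 for Dcn to −2.13 for Bgn. Fmod stood at 9.48, against 9.76 in MEFs (difference −0.28, adjusted p = 0.224). All these late comparisons share the MEF arrays with those of day 3.

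The share of the day 3 fall that was regained, taken on log2 values, shows how far apart the members ended. In SSEA1+ cells of day 12 it was −12.5% for Bgn, −4.79% for Lum, 10.9% for Ogn, 13.2% for Postn, 21.3% for Aspn, 24.5% for Dcn and 54.0% for Fmod. In Thy1- cells it was 13.2% for Lum, 24.97% for Postn, 43.1% for Bgn, 55.2% for Aspn, 71.1% for Dcn and 81.3% for Ogn. In Thy1+ cells it was 9.25% for Lum, 52.6% for Postn, 81.3% for Aspn, 98.2% for Bgn, 116% for Dcn and 132% for Ogn. Fmod, whose fall was small, regained 283% in Thy1- and 341% in Thy1+ cells. Each share comes from a single day 12 array and has no error of its own. A share of log2 values is not a share of the unlogged signal. In Thy1+ cells of day 12 Postn and Aspn still differed from MEFs by −2.76 and −1.12 (log2).

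The return itself was smaller in SSEA1+ than in Thy1+ cells for 4 of 7 members, by an interaction term in limma that sets the late rise over day 3 of one fraction against that of the other. Of all genes 4.59% were called lower by this term. The late rise was 1.88 in SSEA1+ and 4.29 in Thy1+ cells for Aspn (difference −2.42, SE 0.32, adjusted p = 0.000182). For Ogn it was 0.46 in SSEA1+ and 2.49 in Thy1+ cells (difference −2.03, SE 0.36, adjusted p = 0.00192). For Fmod it was 1.06 in SSEA1+ and 2.59 in Thy1+ cells (difference −1.53, SE 0.26, adjusted p = 0.00128). For Dcn it was 0.87 in SSEA1+ and 2.48 in Thy1+ cells (difference −1.61, SE 0.40, adjusted p = 0.0154).

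Postn, Bgn and Lum gave −1.82, −0.79 and −0.72 for the same term, with adjusted p of 0.0781, 0.192 and 0.115. Postn was called without the day 6 Thy1+ M2 array, which enters only the estimate of spread (adjusted p = 0.0459), under quantile normalization (adjusted p = 0.0474) and with only the groups compared in the fit (adjusted p = 0.000204). The Dcn call was lost without Thy1+ M2, Thy1+ M3 or SSEA1+ M3 of day 3, with adjusted p of 0.0519, 0.0532 and 0.0639. With day 9 alone only the Aspn call remained.

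Fibroblast markers and pluripotency genes moved over the same days. From day 3 to the late arrays 4 of 10 fibroblast markers were called lower in SSEA1+, 2 in Thy1- and 1 in Thy1+ cells. Pdgfrb, a receptor of mesenchymal cells, was the 1 called higher, by 1.71 in Thy1+ cells. In either direction 582, 604 and 919 of all 11807 genes were called in SSEA1+, Thy1- and Thy1+ cells. Their median signal was 8.94 in SSEA1+, 10.91 in Thy1- and 11.84 in Thy1+ cells of day 12. All 9 measured pluripotency markers were called higher in late SSEA1+ cells than on day 3. The interaction term that was called lower for 4 members was also called lower for 5 of the 10 fibroblast markers, beside 4.59% of all genes. Epithelial markers had a median of 9.06 and 10.08 in SSEA1+ cells of days 9 and 12, and 5 of 7 were called higher by the interaction term. That term was called in either direction for 999 of all 11807 genes. Of the macrophage markers Lyz2 was called higher late than on day 3 in SSEA1+ (1.32) and Thy1+ cells (2.05) and Cd14 in Thy1+ cells, with an interaction of −1.24 for Cd14, also called. The 18S control read 7.675 on the day 12 Thy1+ array and 6.36 on that of day 9, against 6.26 and 6.17 on the day 3 Thy1+ arrays. The part of these shifts in the return of the 7 genes was not tested.

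Sorted on the same day, SSEA1+ cells had less of each gene than Thy1+ cells. On each of days 3, 6, 9 and 12 all 7 genes were lower on every SSEA1+ array than on every Thy1+ array, and 25.7%, 29.7%, 43.5% and 46.9% of all genes had this order on those days. With Thy1- cells in the middle, 5, 6, 7 and 7 of the 7 genes were in order, beside 24.99%, 32.0%, 23.5% and 28.9% of all genes.

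Over all days together, 6 of 7 members were called lower in SSEA1+ than in Thy1+ cells, beside 6.21% of all genes. Averages here are means of the day means, so each day has the same weight. Aspn averaged 5.61 in SSEA1+ and 8.76 in Thy1+ cells (difference −3.15, SE 0.14, adjusted p = 6.35e-10), which ranked 5 by size among all genes. Postn averaged 6.42 in SSEA1+ and 9.29 in Thy1+ cells, and Ogn 8.69 in SSEA1+ and 11.20 in Thy1+ cells. The other calls were Dcn (−1.99), Bgn (−1.67) and Fmod (−1.33). Lum at −0.85 (adjusted p = 4.12e-05) was under 2-fold. Of the 10 fibroblast markers 8 were called lower in the same comparison, Thy1 by −2.42, and their part in it was not tested.

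**Figure D3:**
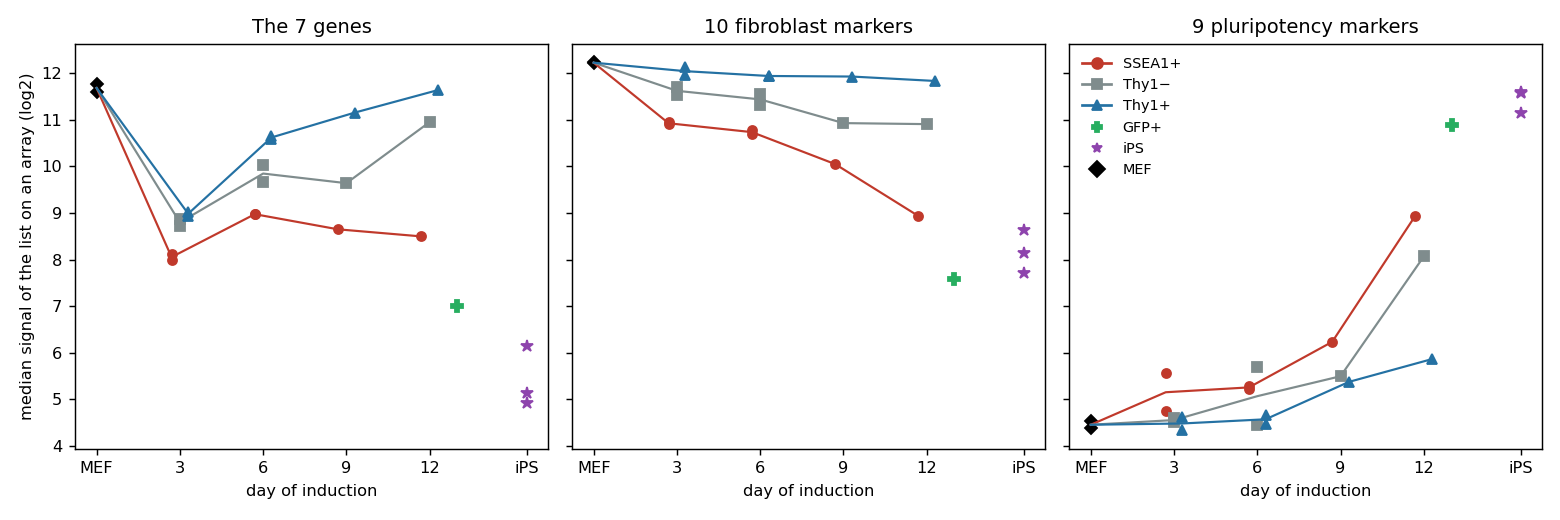
Median signal (log2) on each of the 24 arrays over the 7 genes, over 10 fibroblast markers and over 9 pluripotency markers, against day of induction and fraction. The median of the 7 genes lies at 7.99 to 9.03 on the day 3 arrays and at 11.61 and 11.76 in MEFs, while that of the fibroblast markers lies at 10.91 to 12.14 on day 3 and at 12.22 and 12.24 in MEFs.

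The GFP+ cells of day 12 were set against GFP-negative SSEA1+ cells of that day, with 1 array each. In limma, 2 of 7 members were called lower, beside 4.73% of all genes. Fmod read 6.999 in GFP+ cells and 9.14 in SSEA1+ cells (difference −2.14, SE 0.26, adjusted p = 9.76e-05). Dcn read 7.70 in GFP+ cells and 9.08 in SSEA1+ cells (difference −1.39, SE 0.40, adjusted p = 0.0403), a call that was lost under quantile normalization (adjusted p = 0.051). Ogn at −1.06 (adjusted p = 0.0894) was called without the day 6 Thy1+ M2 array (adjusted p = 0.0383), and Postn, Aspn, Bgn and Lum gave −1.07, −0.65, −0.52 and −0.30. The median of the fibroblast markers was 7.59 in GFP+ and 8.94 in SSEA1+ cells, and its part was not tested.

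In iPS cells all 7 genes were called lower than in MEFs, beside 15.3% of all genes. Aspn read 4.70, 4.34 and 4.99 on the 3 iPS arrays, far below both MEF arrays. It averaged 4.68 ± 0.33 (SD, n = 3) in iPS cells and 11.68 in MEFs (difference −7.01, SE 0.21, adjusted p = 3.54e-12 in limma). Fmod, which in late cells of the 3 fractions was above MEFs or within 2-fold of them, averaged 4.54 ± 0.14 in iPS cells and 9.76 in MEFs (difference −5.22, SE 0.17). Bgn had the smallest difference, −3.18 (SE 0.23), and averaged 9.73 ± 0.59 in iPS cells. Dcn, Postn, Ogn and Lum differed by −6.42, −6.36, −5.85 and −5.47.

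One iPS array had the highest reading for every member, by margins that differed. All 7 genes were highest on the array of line 1-3 among the 3 iPS arrays, as were 9 of 10 fibroblast markers and 35.9% of all genes. Postn read 7.46 on that array and 5.82 and 5.68 on the others, and Dcn read 6.15 against 4.93 and 5.13. Ogn, at 6.21 against 5.91 and 5.21, and Aspn, at 4.99 against 4.70 and 4.34, did not set that array apart. The median fibroblast marker signal was 8.63 there and 8.14 and 7.70 on the others, and its part in the higher values was not tested.

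Of 12 other small leucine-rich proteoglycan genes, 6 were measured, and 4 of them, Kera, Epyc, Optc and Chad, were not called in any comparison. Prelp, the neighbour of Fmod, moved opposite to the 7 genes on day 3, higher than in MEFs by 1.08 in Thy1- and 1.44 in Thy1+ cells, and by 0.17 in SSEA1+ cells, where it was not called. In late Thy1+ cells Prelp was 2.83 above MEFs. Omd, which lies between Aspn and Ogn, was lower on day 3 in SSEA1+ cells (−1.10) and rose over day 3 in late Thy1- (1.25) and Thy1+ cells (2.11), where it passed MEFs by 2.08.

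Postn has relatives in function among the matricellular genes, which encode secreted proteins that signal to cells without building the matrix. Of 16 measured, 8 were called lower on day 3 in SSEA1+, 7 in Thy1- and 6 in Thy1+ cells, and 0 higher, with list medians of −1.0, −0.72 and −0.62, beside medians of all genes near 0 given with the members. Ccn5, a growth regulator of the CCN family, differed by −5.25, −5.04 and −4.55 in that order, and its late rise over day 3 was 0.98, 1.62 and 3.35, the first under 2-fold. Thbs4, a thrombospondin of tendon and muscle, differed by −4.30, −4.46 and −4.45, with a late rise of 0.64, 1.16 and 2.31. Of the 16 genes 2 were called higher late in SSEA1+, 4 in Thy1- and 7 in Thy1+ cells. Tgfbi, the closest relative of Postn with the same fasciclin domains, differed by −0.30, 0.50 and 0.67 on day 3 and was not called.

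Enzymes that build the sugar chains of these proteins were counted on day 3 against the 8.8%, 6.55% and 5.43% of all genes called lower. Of 13 genes of chondroitin and dermatan sulfate synthesis 5 were called lower on day 3 in SSEA1+, 2 in Thy1- and 1 in Thy1+ cells, and 0 higher, with medians of −0.96, −0.85 and −0.73. Csgalnact1, which starts chondroitin chains, differed by −3.04, −2.10 and −1.63, and rose over day 3 by 1.57 in late Thy1+ cells. Of 5 keratan sulfate genes 3, 2 and 2 were called lower (medians −1.16, −0.89 and −0.60), among them the sulfotransferase genes Chst1 (−2.38, −2.02 and −1.80) and Chst2 (−1.71, −1.41 and −1.34). Chst1 was called higher in late SSEA1+ cells than on day 3 (1.47), by the interaction term (1.33) and in GFP+ cells (1.89). In iPS cells it was called lower than in MEFs, by −1.94.

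Of 5 genes that process procollagen or biglycan 2, 1 and 1 were called lower on day 3 in SSEA1+, Thy1- and Thy1+ cells and 1 higher in each, with medians of −0.79, −0.71 and −0.51. Pcolce, an enhancer of procollagen cleavage, was lower in SSEA1+ cells by −1.33, and differed by −0.77 and −0.57 in Thy1- and Thy1+ cells. Its interaction term was −1.38, and over all days it was lower in SSEA1+ than in Thy1+ cells by −1.56, both called. Pcolce2, a relative of Pcolce, was higher on day 3 by 3.64, 3.71 and 3.60 in SSEA1+, Thy1- and Thy1+ cells. It was lower in late Thy1+ cells than on day 3 by −2.71. Tll1, a protease of the same pathway, was lower on day 3 by −2.07, −1.66 and −1.60.

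Of 10 receptors reported to bind proteins of the 7 genes, 2 were called lower in SSEA1+, 2 in Thy1- and 1 in Thy1+ cells of day 3, and 1 was called higher in each, with medians of −0.72, −0.39 and −0.40. Tlr4, an innate immune receptor that biglycan can engage, differed by −2.35, −1.78 and −1.36, and rose over day 3 by 2.16 in late Thy1+ cells. Met, the hepatocyte growth factor receptor, was the higher one, by 1.43, 1.88 and 1.55.

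Of 13 large and cell surface proteoglycans 3, 2 and 1 were called lower on day 3 and 0 higher, with medians of −0.59, −0.34 and −0.24. Sdc3, a syndecan, differed by −2.80, −2.14 and −1.96. Vcan, the large matrix proteoglycan versican, differed from MEFs by −1.56, −0.94 and −0.58 on day 3, called in SSEA1+ cells, and by −4.56, −3.10 and −1.67 in late cells.

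Genes with the most similar profile were ranked for each member by Pearson correlation over the 24 arrays, which share cultures, fractions and processing, so the values are descriptions. The closest to Lum were Agtr2 (r = 0.980), Tnmd (r = 0.978) and Col14a1 (r = 0.973). For Aspn they were Mfap5 (r = 0.980) and Islr (r = 0.979), and for Postn Avpr1a (r = 0.942) and Aoc3 (r = 0.940). Dcn was closest to Ccn3 (r = 0.982), Ogn to Fhl2 (r = 0.981), Bgn to Cdh11 (r = 0.984) and Fmod to Zbtb20 (r = 0.976). Among the members themselves Dcn and Ogn were most alike (r = 0.976), Aspn and Postn had r = 0.954, and Lum and Fmod were least alike (r = 0.251).

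A second probe set was present for Aspn, Bgn and Ogn on the larger array design. For the day 3 difference in SSEA1+, Thy1- and Thy1+ cells it gave −6.55, −5.85 and −4.92 for Aspn, −2.47, −1.52 and −1.03 for Bgn and −4.26, −2.73 and −2.57 for Ogn, all in the direction of the first.

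**Figure D4:**
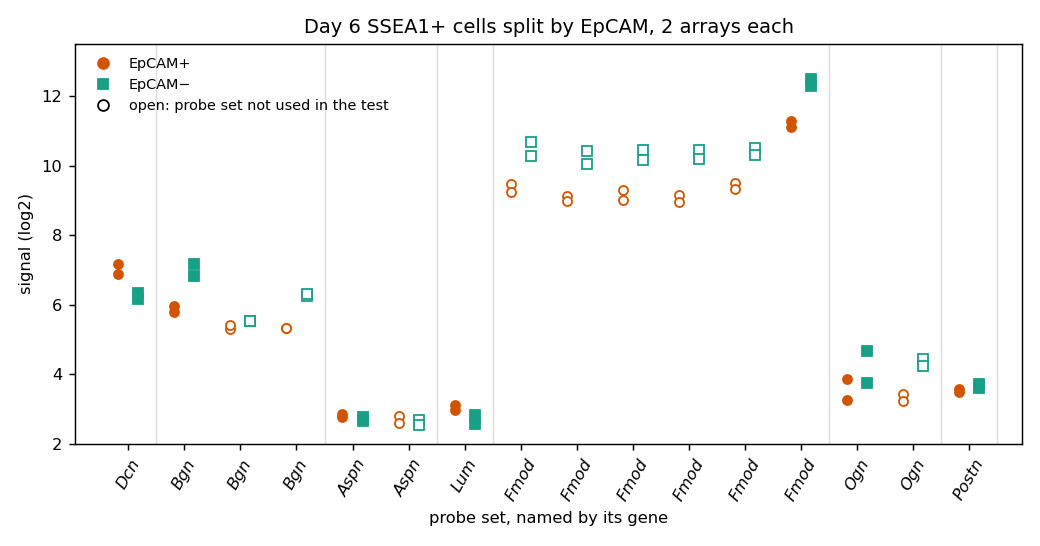
Signal (log2) of every probe set of the 7 genes on the 2 EpCAM+ and 2 EpCAM- arrays of SSEA1+ cells of day 6, EpCAM+ left of EpCAM-, with open symbols for probe sets not used in the test. Every Fmod probe set is lower in EpCAM+ cells, by −0.98 to −1.26.

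The smaller experiment split the SSEA1+ cells of day 6 by EpCAM. Of the 7 members 2 were called lower in EpCAM+ than in EpCAM- cells, beside 0.266% of all 12394 genes. Fmod read 11.29 and 11.12 in EpCAM+ cells, against 12.49 and 12.30 in EpCAM- cells (difference −1.19, SE 0.11, adjusted p = 0.0092). Bgn read 5.79 and 5.97 in EpCAM+ cells, against 7.18 and 6.84 in EpCAM- cells (difference −1.13, SE 0.14, adjusted p = 0.0187). For both genes the groups did not overlap. With 2 arrays a group, leaving out any 1 of the 4 arrays ended both calls (adjusted p of 0.0995 to 0.231), though the direction stayed.

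Dcn differed in the other direction, at 7.17 and 6.90 in EpCAM+ cells, against 6.33 and 6.17 in EpCAM- cells (difference 0.78, SE 0.12, adjusted p = 0.0346, under 2-fold). Ogn read 3.88 and 3.27 in EpCAM+ cells, against 3.76 and 4.67 in EpCAM- cells, which overlapped (difference −0.64, adjusted p = 0.346). Aspn, Postn and Lum differed by 0.11, −0.13 and 0.35, with adjusted p of 0.548, 0.483 and 0.189. They were dim on all 4 arrays, where at most 17.3% of probe sets had a lower or equal signal. For Bgn, Ogn and Dcn that share was 42.3% to 56.4%, 8.83% to 30.6% and 46.0% to 56.1%. On the day 6 SSEA1+ arrays of the larger experiment these genes had 96.5%, 79.25% to 81.75% and 74.0% to 74.2%. There Aspn, Postn and Lum had 45.2% to 48.1%, 59.9% to 65.9% and 17.5% to 19.7%. Fmod was high in both, at 93.9% to 98.1% here and 88.6% to 90.3% there. The array designs differ, and for Ogn and Fmod the probe sets used differ between the experiments as well. The cause of the rank differences was not tested. The 6 Fmod probe sets agreed in direction, whereas the 3 Bgn probe sets gave −1.13, −0.94 and −0.17. The Fmod probe set used is of a kind that the array maker marks as open to cross-hybridization. The Fmod probe set used in the larger experiment lacks that mark and gave −1.13 here.

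Fibroblast markers differed between these sorts too. The median of 12 markers was 6.91 and 6.95 in EpCAM+ cells, against 7.61 and 7.63 in EpCAM- cells, and 2 were called lower, Col3a1 (−1.36) and Col1a2 (−1.11). The 18S control read 10.12 and 9.86 in EpCAM+ cells, against 11.43 and 10.23 in EpCAM- cells. Their part in the Fmod and Bgn differences was not tested.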

How the data were processed

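The values analysed are log2 signals per probe set, normalized with RMA by the authors (per the submitters' processing notes) in 2 deposited tables, each scaled on its own and never compared by level. The RMA version is not given in the sources used here. Probe sets with 1 gene symbol were kept, and the probe set with the highest mean signal stood for its gene. Group differences come from limma 3.58.1 (lmFit and eBayes), run in R 4.3.3, with Benjamini-Hochberg adjustment over all genes of the table. The 24 arrays were fitted as 15 group means, so that groups with 1 array borrow the spread of the others, and the 4 EpCAM arrays in a fit of their own. A call needs an adjusted p under 0.05 and at least 2-fold. The fit was tested on simulated data.

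All 7 members were reported, with genes of fixed pathway and marker lists that were called and, for each member, the genes most correlated with it. Members and lists were chosen with earlier results of these data known. The comparison of late cells with day 6 was added after seeing the data. Correlations, motif counts and figures were made in Python 3.11.15 (numpy 2.4.6, pandas 2.3.3, matplotlib 3.10.9). Promoters and gene order come from RefSeq. Promoter coordinates are those of build GRCm38.p6, and no other gene coordinates are given because the array files name no build. The number of arrays limits the precision. Same-named M2 and M3 arrays of 7 groups were checked for pairing: their deviations correlated from −0.207 to 0.214 over 21 pairs of groups, 5 of them above 0.1, so the names were not taken to pair arrays.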

Additional observations from a re-analysis of the deposited data

Results flagged for a closer look

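The late return over day 3 differed between SSEA1+ and Thy1+ cells for 4 members, by the interaction term in limma. The difference was −2.42 for Aspn, −2.03 for Ogn, −1.61 for Dcn and −1.53 for Fmod (log2, SSEA1+ minus Thy1+). Each of these rests on 1 array per fraction on each of days 9 and 12.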

How the results depend on the processing

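Of the values of single members under alternatives, 1713 kept direction and side of the threshold, 27 passed it newly, 52 no longer passed and 19 changed sign; where no value shows the cause, the cause was not tested. Counts of members called that moved by over 1.5 times, and smaller moves given after them, were these. Day 3 to day 6 in Thy1+ cells had 3 with only these groups in the fit, and in SSEA1+ cells 3 to 4 when 1 array was left out. The late return had 3 in Thy1- cells from day 9 alone and 1 in SSEA1+ cells from day 12 alone. The late change from day 6 had 2 in Thy1+ cells from day 12 alone and 0 to 1 with 1 array left out, and in SSEA1+ cells 3 with no minimum fold, 0 with the replicate block, 0 from day 9 alone, 3 from day 12 alone and 0 to 1 with 1 array left out. The interaction had 1 from day 9 alone. GFP+ against SSEA1+ had 1 under quantile normalization, 1 with array medians subtracted and 1 with the replicate block. The EpCAM split had 1 with the mean of all probe sets and 0 with any array left out. Over all alternatives the counts also spanned 5 to 7 on day 3 in Thy1- and in Thy1+ cells (6 as reported), up to 7 from day 3 to day 6 in Thy1+ cells (5), 4 to 7 late against MEF in Thy1- cells (5), up to 3 in GFP+ cells (2) and up to 3 in the EpCAM split (2).

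Sign changes were all in values that were not called. In SSEA1+ cells they were Lum from day 3 to 6 (−0.033 to 0.21 with 1 array left out), Bgn in the late return (−0.29 from day 12 alone) and Fmod against MEF (0.056 from day 9 alone). In Thy1+ cells against MEF they were Ogn (−0.066, day 9 alone), Dcn (0.41, day 12 alone) and Bgn (−0.10 to 0.010 with 1 array left out). In the late change from day 6 of Thy1+ cells they were Postn (−0.15 to 0.44 with 1 array left out, −0.084 from day 12 alone), Bgn (−0.0057 from day 9 alone, −0.073 to 0.12 with 1 array left out) and Lum (−0.36 to 0.22 with 1 array left out). In that of Thy1- cells they were Fmod (−0.020 with array medians subtracted, −0.059 to 0.11 with 1 array left out), Dcn (−0.21), Lum (−0.091), Ogn (−0.31) and Aspn (−0.055) from day 9 alone, and Lum again (−0.011 to 0.32 with 1 array left out).

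The replicate block, with array names that were not shown to pair arrays, ended the calls of Bgn from day 3 to 6 (adjusted p = 0.0555), Postn in the late return (0.0668) and from day 6 (0.0659) in SSEA1+ cells and Dcn in GFP+ cells (0.0527), and no other member's. Subtracting array medians shifted the median of all genes by 0.10 for GFP+ against SSEA1+ cells and by 0.13 for iPS cells against MEFs. Counts of all genes called moved by over 1.5 times with no minimum fold, as on day 3 (4057, 3211 and 2807 in SSEA1+, Thy1- and Thy1+ cells, against 1905, 1448 and 1263), and for day 3 to day 6 in Thy1+ cells (1077 as reported), with 165 for only these groups, 668 without day 6 M2 and 2327 without day 6 M3. In the late change from day 6 they spanned 76 to 666 in SSEA1+ (282 as reported), 60 to 320 in Thy1- (163) and 0 to 1507 in Thy1+ cells (57), and in the interaction 509 to 1464 (999) and in the EpCAM split 0 to 340 (93). Few arrays and dim signals limit the precision, above all for Lum and for Aspn in SSEA1+ and Thy1- cells of day 3. Dropping the dimmest 25% of genes removed Lum.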
